A study of Mus musculus with 7 samples.

Results

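The gene Tcf7 encodes TCF1, and the peaks around it were described in CUT&RUN libraries of LEF1 and TCF1 from naive mouse CD8 T cells. CUT&RUN tethers a nuclease to a DNA-bound protein by means of an antibody and sequences the fragments it releases. The members were the distinct peak intervals that touched the Tcf7 gene body (chromosome 11, 52246527 to 52283383 in GRCm38.p6) or the 50 kb on each side, a window of 136.9 kb. The window held 32, 36 and 28 of the 27666, 37646 and 23704 peaks of LEF1 replicates 1, 2 and 3, and 32, 25 and 16 of the 25623, 22901 and 11423 peaks of TCF1 replicates 1, 2 and 3. Merged over the 6 lists wherever peaks overlapped by at least 1 bp, they formed 38 of the 38231 regions of the series.

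Per the labels the cells of both groups were wild type, came from spleens and were TCR-P14 transgenic, that is, they expressed 1 fixed T cell receptor. They were sorted as CD8+, Ly5.1+, CD44- and CD62L+, which marks T cells that have not met antigen. The labels separate the groups by the antibody, which was against LEF1 in 3 libraries and against TCF1 in 3 libraries. The series also labels an input control without antibody from another gate (CD8+, Ly5.1- and CD44+), not analysed here. Whether replicates stem from different animals is not stated, and p-values therefore cover the spread among these libraries, which may be technical.

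TCF1 and LEF1 are transcription factors that bind DNA through a closely related HMG box, a domain that bends the double helix. Both take part in the formation of T cells in the thymus, where Notch signalling is known to turn Tcf7 on. TCF1 is widely used as a marker of naive and stem-like CD8 T cells. TCF1 is also known to act on its own gene during T cell development.

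The Tcf7 gene runs along the minus strand, so its 5′ end is the high coordinate, and all distances below are from that end. In the upstream flank lies Gm30217, a long noncoding RNA gene between -35.3 and -24.1 kb, where negative distances are upstream. At its 3′ end Tcf7 overlaps the end of Skp1, the gene of a subunit of the SCF ubiquitin ligase. Farther downstream lies the olfactory receptor gene Olfr1371. Exons and introns were not told apart here.

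RefSeq promoter windows (GRCm38.p6, 250 bases before to 50 after a listed start) were matched for Tcf7, Skp1 and Olfr1371. Those of Skp1 and of the inner Tcf7 start are shown, as regions covered more bases there (263 and 300 of 300) than in the others. The core bound by TCF and LEF proteins was searched as CTTTGA or CTTTGT on both strands. Capitals mark it, and it stands once in the Skp1 window, 36 bases from the start of the window, and not in the other.
Skp1, chr11:52231745-52232044, plus strand: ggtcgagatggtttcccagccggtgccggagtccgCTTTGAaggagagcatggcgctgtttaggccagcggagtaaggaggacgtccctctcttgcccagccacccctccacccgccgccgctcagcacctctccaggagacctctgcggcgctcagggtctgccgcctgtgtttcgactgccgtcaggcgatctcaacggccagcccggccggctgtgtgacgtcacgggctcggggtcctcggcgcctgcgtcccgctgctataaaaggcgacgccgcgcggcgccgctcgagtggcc
Tcf7, chr11:52282546-52282845, minus strand: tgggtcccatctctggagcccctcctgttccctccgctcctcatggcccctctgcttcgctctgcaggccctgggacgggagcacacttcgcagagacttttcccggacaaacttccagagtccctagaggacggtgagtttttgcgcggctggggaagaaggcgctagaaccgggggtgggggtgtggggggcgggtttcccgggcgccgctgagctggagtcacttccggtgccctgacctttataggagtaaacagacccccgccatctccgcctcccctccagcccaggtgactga
Of all 32851 promoter windows of this length, 31.2% held 1 of these cores. The inner Tcf7 window lay wholly under a region found in 5 libraries, whose summits averaged 45 bp upstream of the listed start. The Skp1 window had 263 of its 300 bases under a region of all 6 libraries, with summits 0.296 kb upstream of the start on average. A window of the other listed Tcf7 start (52282965 to 52283264) had 161 bases under the strongest region at the gene's 5′ end and no core. The Olfr1371 window had neither a core nor a peak. A match is a description of the letters and not a binding site.

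TCF1 replicate 3 stood apart from the other libraries. It had the shortest list and a median fold enrichment of 9.53, against 10.5 to 11.4 in the other 5, where fold enrichment is the authors' ratio of the signal at a peak's summit to its local background. At all 16 regions of the Tcf7 window found in all 6 libraries it had the lowest fold enrichment, and LEF1 replicate 2 had the highest. Over the 10890 such regions of the genome this was so at 96.1% and 87.2%. The values of these 2 libraries therefore follow the whole lists. No read totals were given, so the depth is unknown. Of markers checked in the gene body, all 6 T and CD8 T cell genes (Cd3d, Cd3e, Cd3g, Cd8a, Cd8b1 and Lck) held a region of each factor, against 1 of 4 myeloid genes (Itgam). Of the B cell genes reported, Cd79a and Pax5 held a region of each factor and Ms4a1 held none. Over all protein-coding genes, 40.9% held a LEF1 and 39.0% a TCF1 region there. The myeloid genes Lyz2, Csf1r and Cd14 held none. The part of other cells in the results was not tested.

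Peaks were denser in the upstream flank and the 5′ part of Tcf7 than beyond. Of the 38 regions, placed by their mean summit, 17 lay upstream (3.4 per 10 kb), 15 in the gene body (4.07 per 10 kb) and 6 downstream (1.2 per 10 kb). The region over the 5′ end thus counts as upstream, while 16 regions touched the gene body. The regions found in all 6 libraries numbered 8 upstream, 5 in the gene body and 3 downstream. Neighbouring regions were separated by a median of 0.979 kb. The widest gap, 12.8 kb, ran from the 3′ part of Tcf7 into Skp1, and no region lay in the last 23.9 kb of the window, around Olfr1371. On the upstream side the outermost region began 43.7 kb from the gene, and the next one outside the window began at 54.6 kb and was found in 3 libraries. On the downstream side the outermost ended 26.0 kb from the gene and the next outside at 65.6 kb, each in 1 library.

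**Figure D1:**
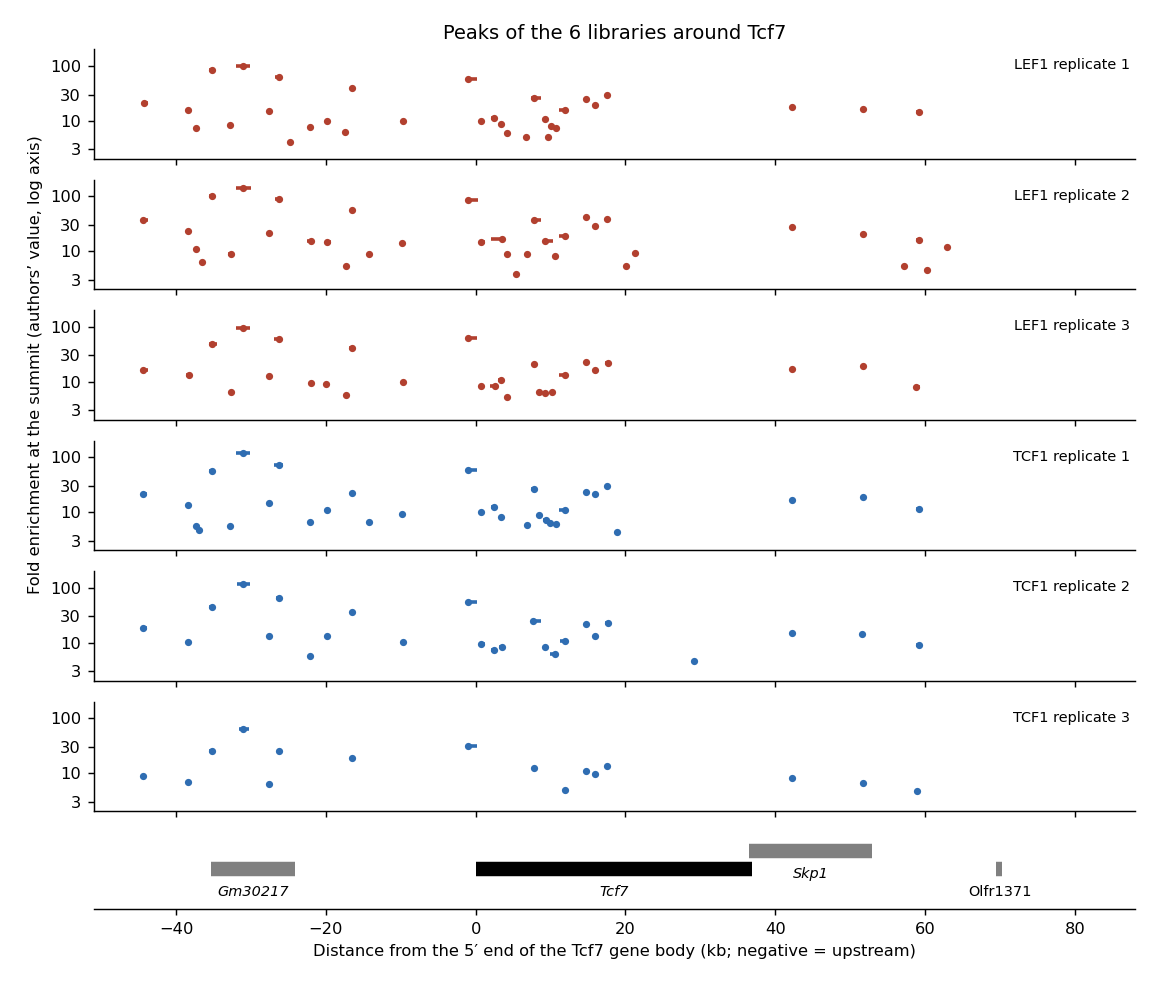
Peaks of each library around Tcf7, LEF1 libraries above and TCF1 libraries below. The x axis is the distance from the 5′ end of the gene body in kb, the y axis the fold enrichment on a log axis; lines span the peaks, points are summits, and bars at the bottom are gene bodies. The highest point of every library lies 31.0 kb upstream, within Gm30217.

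LEF1 held 27 of the 38 regions, meaning that 2 or 3 of its libraries had a peak there, and TCF1 held 22 by the same criterion. These were 71.1% and 57.9% of the regions, where over all 38231 regions LEF1 held 71.7% and TCF1 held 55.5%. All 22 TCF1 regions were also held by LEF1 (57.9%, against 53.6% over all regions). LEF1 held 5 regions that TCF1 did not (13.2%, against 18.1%), and TCF1 held none that LEF1 did not (against 1.93%). These shares were near those of the whole series. Found in all 6 libraries were 16 regions, 42.1% against 28.5% over all regions, and a further 6 were missing only from TCF1 replicate 3 (15.8%, against 21.4%). Without that library 22 regions were thus found in all the others, where the same kinds numbered 10890 and 8185 among all 38231 regions. Another 10 regions were found in 1 library (26.3%, against 23.1%), 7 of them in LEF1 replicate 2, which has the longest list (18.4%, against 20.8%).

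The strongest region of the locus in every library lay 31.0 kb upstream of the gene (52313387 to 52315418), inside Gm30217. Its fold enrichment was 98.0, 140 and 93.4 in LEF1 replicates 1, 2 and 3 and 119, 117 and 63.2 in TCF1 replicates 1, 2 and 3. The ranges of the factors overlapped. It ranked 105, 84 and 77 in the LEF1 lists and 56, 33 and 31 in the TCF1 lists, within the strongest 0.38% of each. By mean percentile it came 53rd of the 10890 regions found in all 6 libraries. Its summits fell within 3 bp of each other in all 6 libraries, although the merged region was 2032 bp wide, wider than 98.3% of such regions. Summits lay within 10 bp at 6.67% of all such regions, and at 2 of the 16 around Tcf7.

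The other region with such close summits, 4 bp apart, lay 26.3 kb upstream (52309156 to 52310267), also in Gm30217. Its fold enrichment was 62.3, 91.2 and 58.8 in the LEF1 libraries and 71.6, 65.5 and 25.6 in the TCF1 libraries. Both factors had it among the strongest 2.15% of their lists except in TCF1 replicate 3, where it stood at 7.62%. Another strong region, 35.2 kb upstream (52317957 to 52319036), covered one end of Gm30217. There the fold enrichment was 82.4, 99.5 and 47.7 in the LEF1 libraries, against 55.7, 45.2 and 25.5 in the TCF1 libraries. LEF1 replicate 3 lay among the TCF1 values. Within its list this region took place 2 of the locus in LEF1 replicates 1 and 2 and place 4 in LEF1 replicate 3 and the 3 TCF1 libraries.

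Between these and the gene, a region 16.5 kb upstream (52299518 to 52300326) touched no annotated gene. It had fold enrichments of 40.0, 55.3 and 40.8 in the LEF1 libraries and 22.2, 35.6 and 18.8 in the TCF1 libraries. Every LEF1 value was above every TCF1 value here, but in lists of equal size (below) the ranks overlapped. How often this holds for fold enrichments over the genome was not computed. LEF1 replicate 2 was highest at 87.2% and TCF1 replicate 3 lowest at 96.1% of regions of all 6 libraries. TCF1 replicate 1 was the low one in rank, at the 20.0th percentile of its list, where TCF1 replicate 2 stood at 7.9 and TCF1 replicate 3 at 15.3. The remaining upstream regions of all 6 libraries, at 27.6, 38.4 and 44.4 kb, were weaker, with fold enrichments of 6.22 to 37.0. Those at 9.78, 19.9 and 22.1 kb were missing only from TCF1 replicate 3 and had fold enrichments of 5.65 to 15.2 elsewhere.

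The 5′ end of Tcf7 itself was covered by a region of 1601 bp (52283104 to 52284704) with summits on average 1.04 kb upstream of the gene body. Its fold enrichment was 58.2, 84.4 and 61.9 in LEF1 replicates 1, 2 and 3 and 58.6, 55.0 and 30.8 in TCF1 replicates 1, 2 and 3. TCF1 replicate 1 lay within the LEF1 values and the other TCF1 libraries below them. In every list it was weaker than the region 31.0 kb upstream, which had 1.68, 1.66 and 1.51 times its fold enrichment in the LEF1 libraries and 2.03, 2.12 and 2.05 times in the TCF1 libraries.

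Within the gene, regions of all 6 libraries lay 7.74, 11.9, 14.8, 15.9 and 17.6 kb from the 5′ end. The one at 17.6 kb (52265590 to 52266163) had fold enrichments of 29.8, 38.0 and 21.5 in the LEF1 libraries and 30.6, 22.6 and 13.5 in the TCF1 libraries. That at 14.8 kb (52268190 to 52268922) had 25.1, 41.6 and 22.9 in the LEF1 libraries and 23.3, 21.8 and 10.9 in the TCF1 libraries. The groups overlapped at the first and, narrowly, at the second. At 7.74 kb (52274656 to 52276004) the values were 26.3, 37.4 and 20.6 for LEF1 and 26.6, 24.9 and 12.6 for TCF1, again overlapping. At 11.9 kb (52271078 to 52272282) the values were 15.4, 18.9 and 13.3 for LEF1 and 10.7, 10.8 and 4.9 for TCF1. Every LEF1 value was above every TCF1 value, but the region was not in all 6 lists of equal size and its ranks were not compared. In TCF1 replicate 3 it stood at the 95.2th percentile, among the weakest peaks of that list. The share of such regions over the genome was not computed. At 15.9 kb they overlapped, with 16.6 to 28.4 for LEF1 and 9.75 to 21.8 for TCF1. No region in the gene body reached the level of the one at the 5′ end in the same library. Regions at 0.743, 3.05 and 9.42 kb were missing only from TCF1 replicate 3, with fold enrichments of 6.46 to 16.5 for the strongest peak elsewhere. The one at 3.05 kb was split into 2 peaks in each of these libraries except LEF1 replicate 2. Its strongest summits spread over 997 bp, so 3.05 kb is a mean position and not a single site. The one at 9.42 kb was split into 2 to 4 peaks per library, and its strongest summits spread over 969 bp, so this too is a mean position. Beyond 17.6 kb the gene body held 4 further regions, each found in 1 library.

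The 5 regions that LEF1 alone held were all weak, with fold enrichments of 4.96 to 11.1. Of these, 2 appeared in all LEF1 lists and in no TCF1 list, at 17.4 kb upstream and 4.22 kb inside the gene (fold enrichments of 5.21 to 8.68). Such values lie at the 65.0th to 92.3rd percentile of their lists, where low percentiles are the strongest peaks. Absence from a list at that level says only that no peak passed the caller's threshold. Regions found in LEF1 libraries only, in any number of them, were 26.3% of the window, against 31.5% over all regions. The share of regions in all LEF1 lists and in no TCF1 list was not computed over the series.

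Downstream, the regions of all 6 libraries belong to the surroundings of Skp1. The region over the Skp1 promoter window shown above (52231458 to 52232007) had fold enrichments of 16.2, 20.5 and 19.2 in the LEF1 libraries and 18.6, 14.2 and 6.57 in the TCF1 libraries, which overlapped. A second, inside Skp1 (52240776 to 52241436), had values of 8.28 to 28.1, and one beyond Skp1 (52224062 to 52224651) had 4.68 to 15.8.

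**Figure D2:**
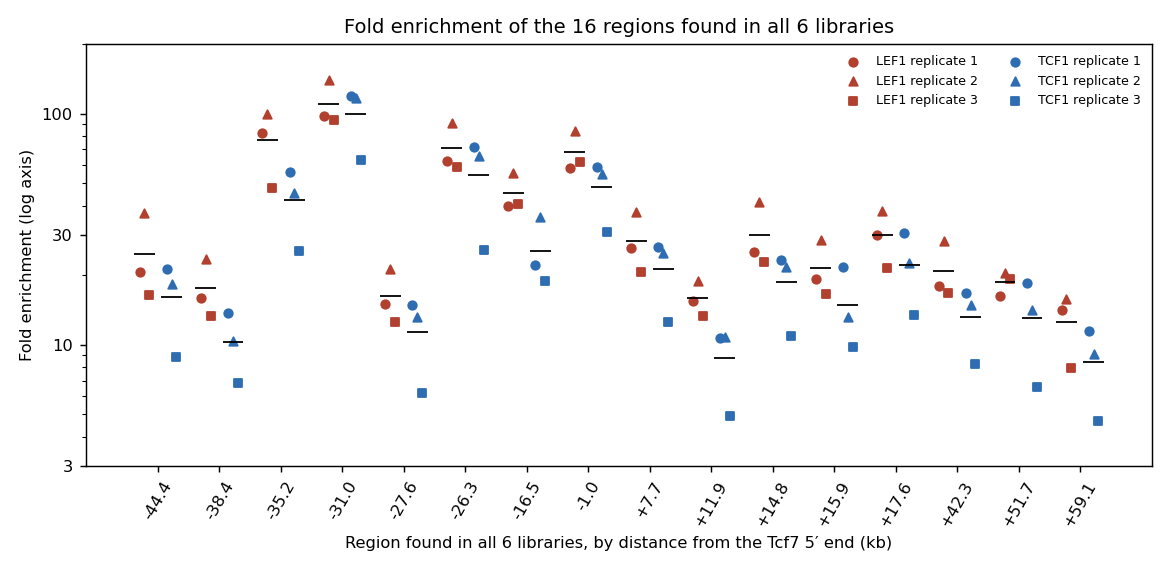
Fold enrichment (log axis) of the 16 regions found in all 6 libraries, ordered by distance from the Tcf7 5′ end in kb (negative is upstream). Points are libraries, LEF1 left and TCF1 right of each position, and lines are means of 3 libraries. LEF1 replicate 2 is the highest and TCF1 replicate 3 the lowest point of every region.

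Along the 16 regions, the libraries put the sites in nearly the same order. Spearman's rho of fold enrichment was 0.918 to 0.976 between libraries of the same factor and 0.926 to 0.979 between libraries of different factors, as a description over 16 regions of 1 locus, which share each library's depth. The region 31.0 kb upstream came first in all 6 libraries, and those at 26.3 kb, 35.2 kb and the 5′ end took the next places in all 6 in varying order. The region at 16.5 kb took place 5 in 5 libraries, and in TCF1 replicate 1 that at 17.6 kb in the gene did.

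Whether the locus carried more peaks of one factor was then tested. LEF1 libraries had 32.0 ± 4.0 distinct peaks in the window and TCF1 libraries 24.3 ± 8.02 (SD, n = 3 each). The difference of 7.67 peaks was within the spread of the TCF1 libraries (two-sided exact permutation p = 0.3, with 0.1 the smallest that 3 libraries against 3 can give). It was 3.5 peaks without TCF1 replicate 3 (exact p = 0.5) and 11.5 without TCF1 replicate 1 (exact p = 0.1, again the smallest possible). Per 10000 peaks of the list, the order was the other way, with 11.0 ± 1.23 for LEF1 and 12.5 ± 1.55 for TCF1 (SD, n = 3 each, exact permutation test, two-sided, p = 0.3). This difference of -1.49 became 0.584 in lists of equal size and -0.722 without TCF1 replicate 3. Peaks covered 18.5, 22.9 and 18.0 kb of the window in LEF1 replicates 1, 2 and 3 and 18.1, 16.1 and 8.21 kb in TCF1 replicates 1, 2 and 3 (exact permutation test, two-sided, p = 0.2). The difference of 5710 bp was 2760 bp without TCF1 replicate 3 (exact p = 0.5).

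The share of peaks upstream of the gene was compared next. Of the Tcf7 peaks, 45.9% ± 1.29 lay upstream of the gene in LEF1 libraries and 47.0% ± 3.0 in TCF1 libraries (SD, n = 3 each, exact permutation test, two-sided, p = 0.7), that is 15 of 32, 16 of 36 and 13 of 28 peaks for LEF1 and 15 of 32, 11 of 25 and 8 of 16 for TCF1. The difference of -1.04 percentage points was 0.479 without TCF1 replicate 3.

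To set the strength of sites side by side, each library was reduced to the 11423 peaks with the highest −log10 q, the length of the shortest list, and peaks were ranked by fold enrichment. The window then held 16, 15 and 15 peaks in the LEF1 libraries and 14, 14 and 16 in the TCF1 libraries. Of 17 regions, 13 were found in all 6 shortened lists. At 3 of the 13 the ranks of the factors did not overlap, whereas they did not overlap at 32.8% of all 8176 such regions of the genome. The region 31.0 kb upstream ranked 105, 84 and 77 in the LEF1 lists, behind 56, 33 and 31 in the TCF1 lists. The region 7.74 kb inside the gene ranked 4106, 3928 and 4676 in the LEF1 lists, also behind 3820, 3534 and 3712 in the TCF1 lists. TCF1 was thus ahead in every library at 2 regions (16.8% of regions of the genome), and at 1 when peaks were ranked by −log10 q instead. LEF1 was ahead in every library at 1 (16.0%), 14.8 kb inside the gene, with ranks of 4450, 3214 and 3910 in the LEF1 lists and 4742, 4459 and 4648 in the TCF1 lists. Each of the 3 gave the smallest p that the design allows (exact permutation test, two-sided, p = 0.1; 0.305 after Benjamini-Hochberg adjustment over the 8176 regions), so none passed. Without TCF1 replicate 3 the lists held 22901 peaks each, 22 regions of the window were compared and 11 did not overlap, against 41.2% of regions over the genome. Without TCF1 replicate 2 the count was 5 of 14, against 41.9%.

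**Figure D3:**
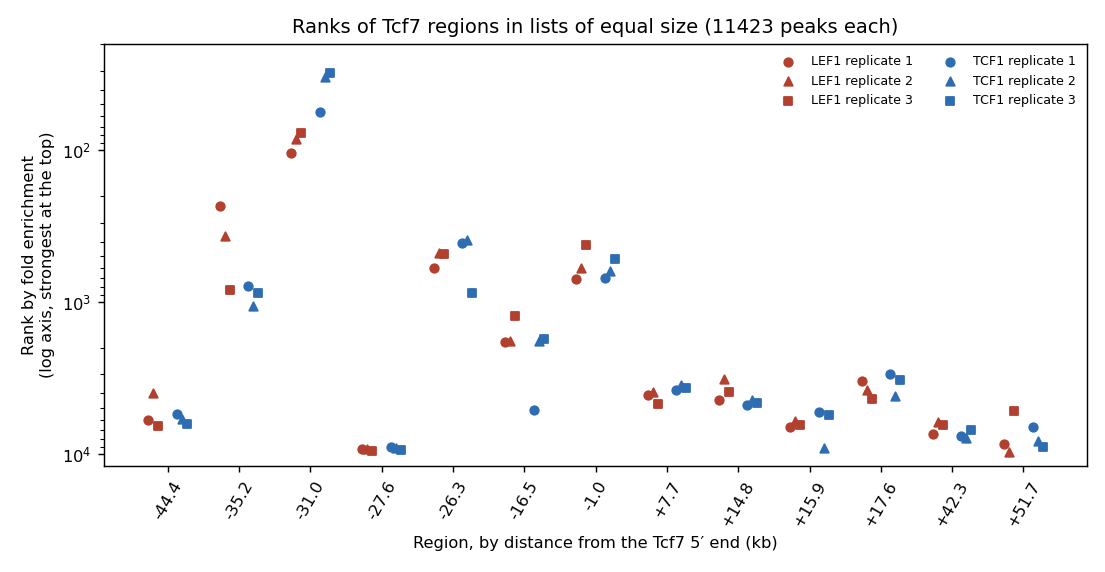
Rank by fold enrichment (log axis, strongest at the top) of the 13 Tcf7 regions found in all 6 lists of 11423 peaks, by distance from the 5′ end in kb. Points are libraries, LEF1 left and TCF1 right. The region 31.0 kb upstream has ranks of 77 to 105 for LEF1 and 31 to 56 for TCF1.

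The same region was set against its neighbours within each list, a comparison chosen after its values were seen. Of 12 ratios of its fold enrichment to that of another region of all 6 libraries at most 50 kb away, 8 were higher in every TCF1 than in every LEF1 library and none the other way. Over the region 35.2 kb upstream the ratio was 1.19, 1.41 and 1.96 in the LEF1 libraries and 2.13, 2.58 and 2.48 in the TCF1 libraries. All 12 ratios share the one region and are not independent. Of all 85 pairs around Tcf7, 19 did not overlap between the factors (22.4%), where 29.8% of 12657 such pairs of the genome did not. Counted in either direction, the locus as a whole therefore showed no more such differences than the background. Of the other 73 pairs, 10 stronger-to-weaker ratios were higher in every TCF1 library and 1 in every LEF1 library. All of these 10 but that of the 5′ end over 16.5 kb upstream involve the region at 7.74 or that at 11.9 kb inside the gene. They too share regions and are not independent. The share by direction over the genome was not computed, so whether the locus leans more than others cannot be said.

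Few genes had as many regions around them. The median protein-coding gene held 3 regions in its body and 50 kb on each side, and 18 of 21883 genes (0.0823%) held more than the 38 of Tcf7. Counting only regions of all 6 libraries, Tcf7 held 16 and 5 genes held more. Lef1, the gene of the other factor, held 38 regions as well, of which 11 were found in all 6 libraries, over a longer window (its gene body is 114 kb, that of Tcf7 36.9 kb). Per 10 kb of window, Tcf7 held 2.78 regions, Lef1 1.78 and the median gene 0.197.

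**Figure D4:**
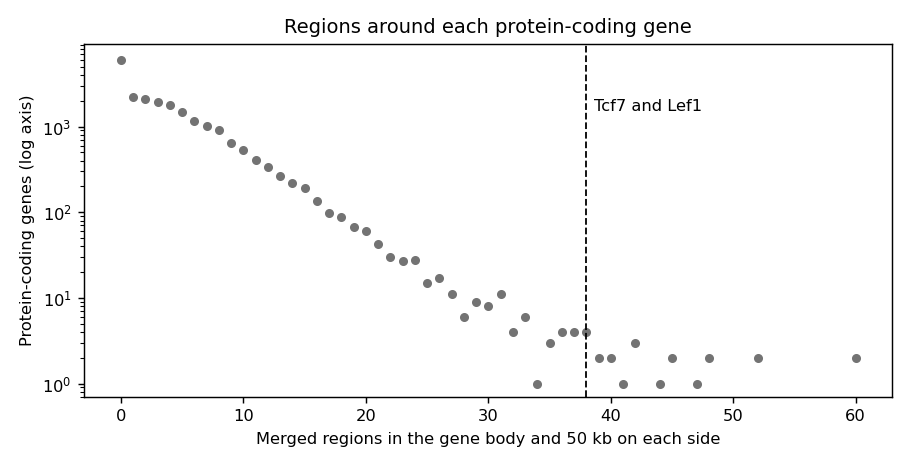
Number of merged regions in the body and 50 kb on each side of each of 21883 protein-coding genes (x axis) against the number of genes with that count (y axis, log). The dashed line marks the 38 regions of Tcf7 and of Lef1, and 18 genes lie to its right.

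The 5 genes whose peak numbers over the 6 libraries were nearest to those of Tcf7 by Euclidean distance were Ccr7 (5.39), Wwox (5.48), Gimap4 (6.56), Gimap6 (6.63) and Gtf2i (6.71). Ccr7, the gene of a chemokine receptor that guides naive T cells into lymph nodes, held 31, 35 and 28 peaks in the LEF1 libraries and 27, 26 and 15 in the TCF1 libraries. Gimap4 and Gimap6 encode GTPases of lymphocytes and lie next to each other, so their windows share peaks. Wwox, an oxidoreductase gene, spans 913 kb, which gives it a far longer window. Gtf2i encodes a general transcription factor. The likeness is one of numbers over 6 libraries that differ in list length.

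The relatives and cofactors of TCF1 other than LEF1 carried fewer regions around their genes than Tcf7. For comparison, the median protein-coding gene held 2 LEF1 and 2 TCF1 regions in its body and 50 kb on each side. All 10 genes of this group (Lef1, Tcf7l1, Tcf7l2, Ctnnb1, Jup, Tle1 to Tle5) had a region of each factor within 50 kb, as did 68.3% of all protein-coding genes for LEF1 and 66.4% for TCF1, with medians of 6.5 LEF1 and 5.5 TCF1 regions per gene. Ctnnb1, the gene of the coactivator beta-catenin, held 4 LEF1 and 3 TCF1 regions, and Tle3, a corepressor gene, held 10 and 7. Lef1 held 28 LEF1 and 21 TCF1 regions, beside the 27 and 22 of Tcf7, and the other 9 genes held 2 to 10 LEF1 and 1 to 8 TCF1 regions. All 15 genes known to regulate Tcf7 or to act with it in T cells also had regions of each factor, with medians of 15.0 and 11.0. Of these, Bach2, a repressor that maintains naive T cells (38 and 28), and Ets1, a transcription factor of lymphocytes (36 and 25), held at least as many LEF1 regions as Tcf7. Notch1, whose product activates Tcf7 in the thymus, held 3 LEF1 and 4 TCF1 regions, and Gata3, needed for T cell commitment, held 5 and 4. Gene lengths differ between these genes, and counts were not matched on length.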

How the data were processed

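LEF1 and TCF1 CUT&RUN peak lists of 3 libraries each were used, with groups and replicate numbers from the sample titles. The submitters' processing notes name Bowtie2 2.4.4, MACS3 3.0.3, Picard, Trim Galore 0.6.6, deepTools 3.5.1, FastQC 0.12.1 and build GRCm38.p6. Their options and the control are given in none of the sources used here. Each library has its own peak names, as the authors' caller writes them when run on 1 library. The deposited fold enrichment is a ratio of summit signal to local background. The deposited p-value and q-value are −log10 values, and the smallest −log10 q was 2.0 to 2.06. The deposited score is made from the −log10 q. How duplicates, repeats and the control were treated decides which peaks were listed.

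Distinct intervals on chromosomes 1 to 19, X and Y were kept (Python 3.11.15, pandas 2.3.3). Each library's strongest peak stood for a region. The gene's strand came from the RefSeq promoter table and positions from the RefSeq gene table of the same build. Group means were compared by exact permutation over 20 assignments, and the code was tested on simulated data. The members, lists and tests were chosen with earlier results of these data known. Named genes followed a rule: Tcf7, genes touching the window, Lef1, the 5 genes nearest in peak numbers, and partner and marker lists. Alternatives were equal list sizes, −log10 q of at least 5, flanks of 10 and 100 kb, other merging and holding rules, ranking by −log10 q, each library left out, and a replicate block. A marker gene is not reported here.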

Additional observations from a re-analysis of the deposited data

How the results depend on the processing

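With lists of equal size the window held 17 merged regions, 15 held by LEF1, 14 by TCF1 and 14 by both, and with 10 kb on each side it held 18, 13, 11 and 11, since both settings take fewer peaks or less DNA. The difference in peaks per 10000 turned to 0.584 with lists of equal size, and that in the upstream share to 0.479 percentage points without TCF1 replicate 3; the causes were not tested. Leaving out 1 library at a time gave 3.5 to 11.5 for the difference in peaks, -2.27 to -0.722 per 10000, 2760 to 7690 for the difference in bases and -2.52 to 0.479 percentage points for the upstream share. The counts were then 33 to 38 merged regions, 25 to 28 held by LEF1, 16 to 23 held by TCF1 and 16 to 23 by both. The low TCF1 counts arise where a held region needs a peak in TCF1 replicate 3, the shortest list. Ranks did not overlap at 3 to 11 of the 13 to 22 regions compared, against 40.9% to 43.6% of such regions over the genome. The 11 were among 22 regions, in lists of 22901 peaks. With lists of equal size LEF1 peaks covered 3270 more bases (exact permutation p = 0.1, the smallest possible). The same p came with −log10 q of at least 5 (5850 bp) and without TCF1 replicate 1 (7690 bp). In the other settings the exact p for bases was 0.2 to 0.5. Bases covered depend on peak width, and whether the whole lists differed in the same way was not tested. With the replicate block, pairing libraries by number, the differences were 7.67 peaks, -1.49 per 10000, 5710 bp and -1.04 percentage points (exact sign-flip p = 0.5, 0.25, 0.25 and 1.0, smallest possible 0.25), and no call changed. Same-numbered libraries deviated together with r = 0.0393, 0.072 and 0.093 over 10890 regions, each library best with its own number, which is a hint from the data and not from the design. Ranking by −log10 q left 2 of 13 regions with ranks that did not overlap, against 34.6% of such regions over the genome. Depth was not given, so a weak region missing from a list may be undetected or absent.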
